A study of Mus musculus with 24 samples.

Results

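Among the genes measured in mouse testis, 5 were lower in *Atad2* knockout (KO) than in wild-type (WT) animals on each of the 4 days sampled: *Asb4*, *A330076C08Rik*, *4933406K04Rik*, *Arfgef3* and *Mdga2*. They were chosen by that result. In an edgeR quasi-likelihood fit with Benjamini-Hochberg adjustment, they were the 5 of 17170 tested genes (of 24456 listed) with an adjusted p under 0.05 and a negative KO minus WT value at days 20, 22, 24 and 26, a share of 0.0291%. Their KO against WT values are therefore given as a description, without a test. Tests were kept to contrasts that the choice did not use, though they draw on the same libraries. They cover the course in time of the 5 genes within each genotype and their relation to the *Atad2* level among libraries of 1 genotype. They also cover the genes beside them on the chromosome, and the gene families to which the 3 protein-coding genes belong.

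RNA came from testes of WT males and of males homozygous for the *Atad2* KO allele, taken at 20, 22, 24 or 26 days after birth. In this allele a *lacZ* cassette was inserted into the gene, and a Cre recombinase under the *CMV* promoter removed the *neo* cassette together with the exon that follows the insertion, and that promoter acts in all tissues. There were 4 WT and 4 KO libraries at each of days 20 and 22, and 2 of each genotype at each of days 24 and 26, 24 in all. The labels do not say whether each library came from a separate animal, so p-values measure the spread between these libraries, which the study calls biological replicates. For day 20 the methods of the study count fewer samples than are labelled, and no labelled library was left out. In library names the genotype comes first, then the day and the replicate (WT_d20_2). The assigned read pairs of a library numbered from 10709667 in WT_d20_2 to 19491935 in WT_d22_4. Levels are given as CPM, read pairs scaled to 1 library size by edgeR's TMM factors.

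The testis of the mouse is filled by germ cells that enter meiosis together in a first wave, so that round and then elongating spermatids follow the pachytene spermatocytes over these days. *Atad2* encodes a bromodomain protein of the AAA ATPase family that binds acetylated histones. ASB4 is an ankyrin-repeat protein with a SOCS box, the part through which such proteins join a cullin-5 ubiquitin ligase as its substrate receptor, and its gene is imprinted. ARFGEF3 belongs by sequence to the family of guanine nucleotide exchange factors that switch on the small GTPases of the ARF family in membrane traffic. MDGA2 is a membrane-anchored protein that binds neuroligins and keeps them from neurexins, their partners across the synapse. *A330076C08Rik* and *4933406K04Rik* are annotated as long intergenic non-coding RNAs.

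The 5 genes lie on 4 chromosomes, none of them the chromosome 15 of *Atad2*. In GENCODE M21, on build mm10, *Asb4* spans chr6:5383386-5433022 on the plus strand. The others are on the minus strand: *A330076C08Rik* at chr13:44185760-44216487, *4933406K04Rik* at chr12:106685607-106716362, *Arfgef3* at chr10:18581839-18743949 and *Mdga2* at chr12:66466060-67222549. Spans ran from 30.7 kb for *A330076C08Rik* to 756 kb for *Mdga2*, against a median of 22.8 kb over the tested genes, and *Mdga2* was longer than 99.5% of them. No other gene model overlapped *Asb4*, *A330076C08Rik* or *4933406K04Rik*. One antisense model overlapped *Arfgef3*. Of the 6 small models inside *Mdga2*, 3 were on its strand, and their reads cannot be told apart from those of an unspliced *Mdga2* transcript.

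The promoters are shown because the 5 genes share the direction of their difference, so that their starts can be compared. Each run is 250 bases before to 50 after the first base of the transcript, from RefSeq on GRCm38.p6, in the direction of the gene. Capitals mark a CCAAT box or a GC box (GGGCGG) on either strand, and runs without capitals hold neither.
Asb4: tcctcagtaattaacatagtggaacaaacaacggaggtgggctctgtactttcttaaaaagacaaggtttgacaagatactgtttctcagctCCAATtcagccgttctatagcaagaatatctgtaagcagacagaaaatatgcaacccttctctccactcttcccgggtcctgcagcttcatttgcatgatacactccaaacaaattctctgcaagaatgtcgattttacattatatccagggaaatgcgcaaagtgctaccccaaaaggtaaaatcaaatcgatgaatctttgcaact
A330076C08Rik: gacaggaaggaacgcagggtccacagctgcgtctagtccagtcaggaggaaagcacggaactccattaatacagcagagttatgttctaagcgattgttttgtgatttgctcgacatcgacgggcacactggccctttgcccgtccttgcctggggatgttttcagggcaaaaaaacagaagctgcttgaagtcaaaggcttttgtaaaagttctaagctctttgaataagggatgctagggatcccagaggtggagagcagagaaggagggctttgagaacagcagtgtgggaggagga
4933406K04Rik: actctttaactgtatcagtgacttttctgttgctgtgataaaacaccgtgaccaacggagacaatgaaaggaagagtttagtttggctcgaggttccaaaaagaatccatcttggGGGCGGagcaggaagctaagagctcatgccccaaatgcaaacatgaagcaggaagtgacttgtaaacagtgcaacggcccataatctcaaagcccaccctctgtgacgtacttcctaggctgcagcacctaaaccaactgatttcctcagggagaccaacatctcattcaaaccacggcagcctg
Arfgef3: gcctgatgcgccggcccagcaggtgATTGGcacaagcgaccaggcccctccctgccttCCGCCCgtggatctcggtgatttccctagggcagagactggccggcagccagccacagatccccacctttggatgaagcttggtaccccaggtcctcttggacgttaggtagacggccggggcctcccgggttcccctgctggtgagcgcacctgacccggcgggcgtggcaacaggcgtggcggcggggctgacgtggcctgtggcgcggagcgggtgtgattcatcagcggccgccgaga
Mdga2: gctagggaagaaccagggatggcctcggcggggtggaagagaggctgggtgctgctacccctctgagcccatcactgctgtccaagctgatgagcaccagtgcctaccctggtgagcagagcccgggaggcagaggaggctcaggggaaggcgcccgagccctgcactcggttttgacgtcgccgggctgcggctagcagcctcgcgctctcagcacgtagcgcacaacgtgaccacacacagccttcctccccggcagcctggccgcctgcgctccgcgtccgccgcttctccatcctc

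The windows were chr6:5383136-5383435, chr13:44216438-44216737, chr12:106716275-106716574, chr10:18743709-18744008 and chr12:67222500-67222799 in that order, and RefSeq gives a further start for *Asb4*, not shown. CCAAT stood in the windows of *Asb4*, 158 bases before the start, and of *Arfgef3*, 225 bases before it on the other strand, and 37.4% of 32851 promoter windows hold it. GGGCGG stood in those of *4933406K04Rik*, 135 bases before the start, and of *Arfgef3*, 192 bases before it on the other strand, against 35.7% of all windows. No window of the 5 held the cyclic AMP response element TGACGTCA on either strand, a run found in 1.79% of windows, or the E-box CACGTG, found in 7.15%. Neither the TATA box (TATAAA, in 13.6% of windows) nor a MYB site (TAACGG, in 2.76%) occurred. The 2 genes with synaptic or membrane-traffic products had CpG-rich starts, with 25 CpG in *Arfgef3* and 22 in *Mdga2*, while *Asb4*, *A330076C08Rik* and *4933406K04Rik* had 6, 8 and 7, close to the median of 7. The 5 windows thus share no searched motif and no CpG class.

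*Atad2* itself was lower in every KO library. It stood at 92.7, 171, 76.4 and 94.0 CPM in the WT libraries of day 20, and at 30.8, 37.1, 36.0 and 32.2 CPM in the KO libraries. Over all days the 12 KO libraries lay between 30.8 and 53.0 CPM and the 12 WT libraries between 76.1 and 171 CPM, without overlap. The values are per gene and do not separate the exons before the insertion from those after it. The fitted difference was -1.67, -1.12, -1.43 and -1.25 on the log2 scale at days 20, 22, 24 and 26, with adjusted p (edgeR) of 5.7e-05, 0.00233, 0.0222 and 0.0628, so that *Atad2* passed at 3 of the 4 days. With each day fitted alone it did not pass at day 20 (adjusted p by edgeR 0.0658) and passed at day 26 (adjusted p by edgeR 0.00021). At day 24 it did not pass when any of that day's 4 libraries was left out (adjusted p by edgeR from 0.0876 to 0.572), and at day 26 it passed by DESeq2 (adjusted p 0.00655).

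In WT testis the 5 genes were expressed at modest levels. Per kilobase of exon, the mean over the 12 WT libraries was 11.0 CPM for *Asb4*, 2.99 for *4933406K04Rik*, 1.28 for *A330076C08Rik*, 1.10 for *Arfgef3* and 0.507 for *Mdga2*, against a median of 4.78 over the tested genes. *Asb4* thus stood above 70.7% of the tested genes on this scale and *Mdga2* above 14.0%. Over the 12 KO libraries the same scale gave 1.49, 0.475, 0.179, 0.343 and 0.185 CPM per kilobase in that order of genes. None was at the floor of detection, set at 3 counts: the lowest KO library held 47 counts of *Asb4*, 11 of *A330076C08Rik*, 6 of *4933406K04Rik*, 51 of *Arfgef3* and 39 of *Mdga2*. Counting error alone is therefore widest for *4933406K04Rik* and *A330076C08Rik*.

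**Figure D1:**
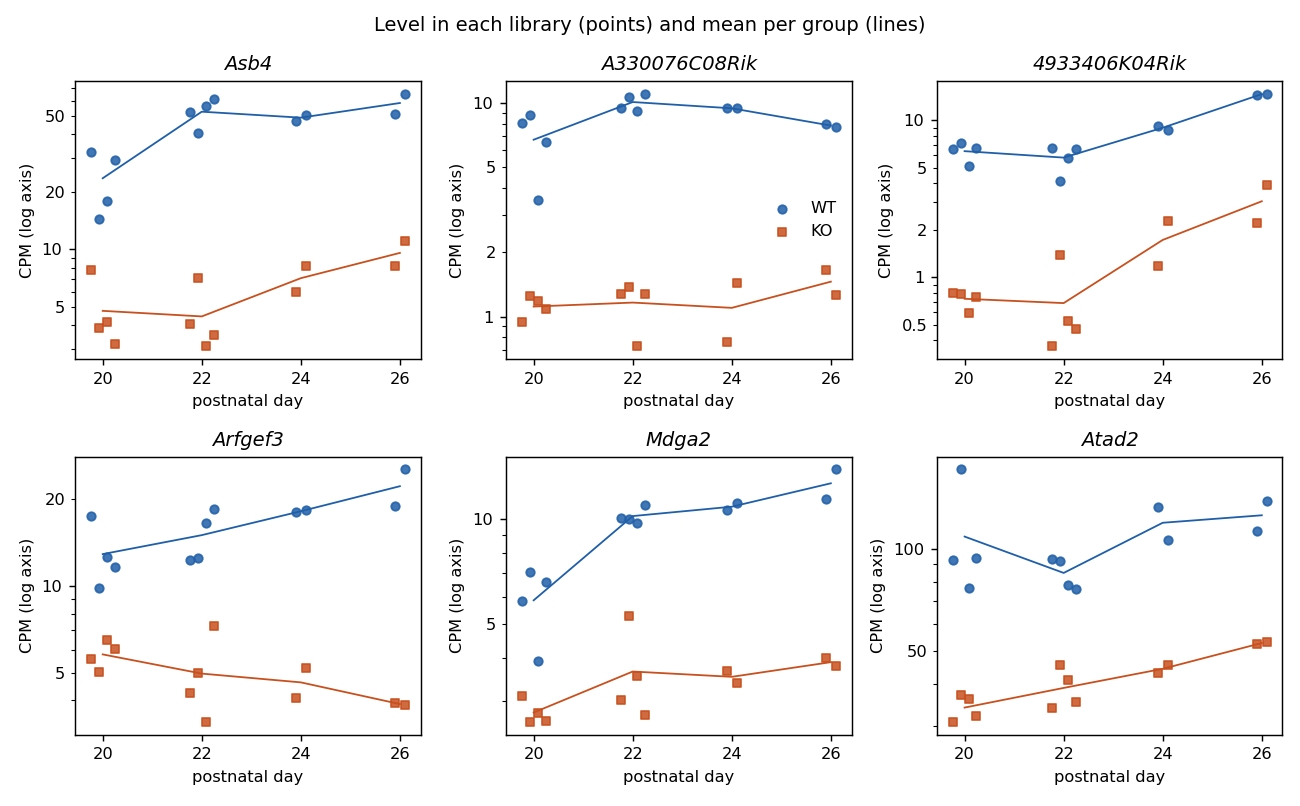
Level of each of the 5 genes and of *Atad2* in CPM (log axis) against postnatal day, 1 point per library (circles WT, squares KO) and a line through the mean of each group. At every day all KO points of each gene lie below all WT points, and *Mdga2* is the gene whose KO points reach the range of WT libraries of another day.

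*Asb4*, the ubiquitin ligase subunit, had the highest WT level of the 5. At day 20 it stood at 32.5, 14.4, 17.9 and 29.4 CPM in WT libraries and at 7.83, 3.86, 4.16 and 3.18 CPM in KO libraries. At day 22 the WT libraries held 52.1, 40.4, 56.5 and 61.1 CPM and the KO libraries 4.05, 7.09, 3.10 and 3.55 CPM. At days 24 and 26 the 2 WT libraries held 47.1 and 50.7 CPM, then 51.4 and 65.3 CPM, against 5.94 and 8.17 CPM, then 8.13 and 11.0 CPM, in KO. The groups did not overlap at any day, and the highest KO library of any day, KO_d26_2, was below the lowest WT library, WT_d20_2, by a ratio of 1.31. The KO mean was 20.2%, 8.47%, 14.4% and 16.4% of the WT mean in order of day, so the gap was widest at day 22, where WT had risen and KO had not. The fitted differences were -2.31 ± 0.299, -3.56 ± 0.306, -2.79 ± 0.416 and -2.60 ± 0.408 (log2, SE).

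*A330076C08Rik*, a long non-coding RNA, was the most cleanly separated of the 5. At day 20 the WT libraries held 8.09, 8.74, 3.53 and 6.55 CPM and the KO libraries 0.943, 1.24, 1.19 and 1.08 CPM. At day 22 they held 9.44, 10.7, 9.20 and 11.1 CPM in WT and 1.27, 1.38, 0.725 and 1.27 CPM in KO. At day 24 the values were 9.43 and 9.44 CPM in WT against 0.760 and 1.44 CPM in KO, and at day 26 they were 7.99 and 7.68 CPM against 1.65 and 1.26 CPM. The lowest WT library of all, WT_d20_3, was 2.13 times the highest KO library, KO_d26_1, the widest such gap of any gene tested. The KO mean was 16.6%, 11.5%, 11.6% and 18.6% of the WT mean at days 20, 22, 24 and 26. The fitted differences were -2.57 ± 0.256, -3.11 ± 0.252, -3.09 ± 0.360 and -2.43 ± 0.347 (log2, SE).

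*4933406K04Rik*, the other long non-coding RNA, had the lowest KO levels of the 5 at days 20 and 22. At day 20 the WT libraries held 6.52, 7.16, 5.14 and 6.62 CPM and the KO libraries 0.798, 0.785, 0.594 and 0.745 CPM. At day 22 they held 6.69, 4.10, 5.77 and 6.60 CPM in WT and 0.363, 1.38, 0.527 and 0.469 CPM in KO. At day 24 the values were 9.25 and 8.70 CPM against 1.17 and 2.29 CPM, and at day 26 they were 14.6 and 14.8 CPM against 2.20 and 3.90 CPM. Both genotypes were highest at day 26. At 4.10 CPM WT_d22_2, the lowest WT library, was 1.05 times the highest KO library, KO_d26_2. The KO mean was 11.5%, 11.8%, 19.3% and 20.8% of the WT mean in order of day, with fitted differences of -3.10 ± 0.311, -3.06 ± 0.308, -2.36 ± 0.393 and -2.25 ± 0.373 (log2, SE).

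*Arfgef3*, of the ARF exchange factor family, differed least at day 20 and most at day 26. At day 20 the WT libraries held 17.5, 9.79, 12.6 and 11.7 CPM and the KO libraries 5.59, 5.04, 6.47 and 6.03 CPM. At day 22 they held 12.3, 12.5, 16.6 and 18.6 CPM in WT and 4.24, 4.99, 3.36 and 7.24 CPM in KO. At days 24 and 26 the WT libraries held 18.0 and 18.3 CPM, then 19.0 and 25.4 CPM, and the KO libraries 4.08 and 5.17 CPM, then 3.92 and 3.84 CPM. WT means were higher at each later day while KO means were lower at each later day, and the KO mean was 44.8%, 33.0%, 25.4% and 17.5% of the WT mean in turn. The lowest WT library was 1.35 times the highest KO library over all days. The fitted differences were -1.16 ± 0.210, -1.60 ± 0.211, -1.97 ± 0.301 and -2.51 ± 0.306 (log2, SE).

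*Mdga2*, the neuroligin-binding protein, had the smallest difference of the 5. At day 20 the WT libraries held 5.82, 7.05, 3.93 and 6.62 CPM and the KO libraries 3.12, 2.62, 2.77 and 2.64 CPM. At day 22 they held 10.1, 10.0, 9.79 and 11.0 CPM in WT and 3.03, 5.29, 3.56 and 2.75 CPM in KO. At days 24 and 26 the WT libraries held 10.6 and 11.1 CPM, then 11.5 and 13.9 CPM, and the KO libraries 3.66 and 3.40 CPM, then 3.99 and 3.79 CPM. Within each day the groups did not overlap, but across days 2 KO libraries reached the lowest WT library, WT_d20_3. The KO mean was 47.6%, 35.8%, 32.5% and 30.6% of the WT mean in turn, with fitted differences of -1.06 ± 0.193, -1.48 ± 0.185, -1.62 ± 0.263 and -1.70 ± 0.260 (log2, SE).

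**Figure D2:**
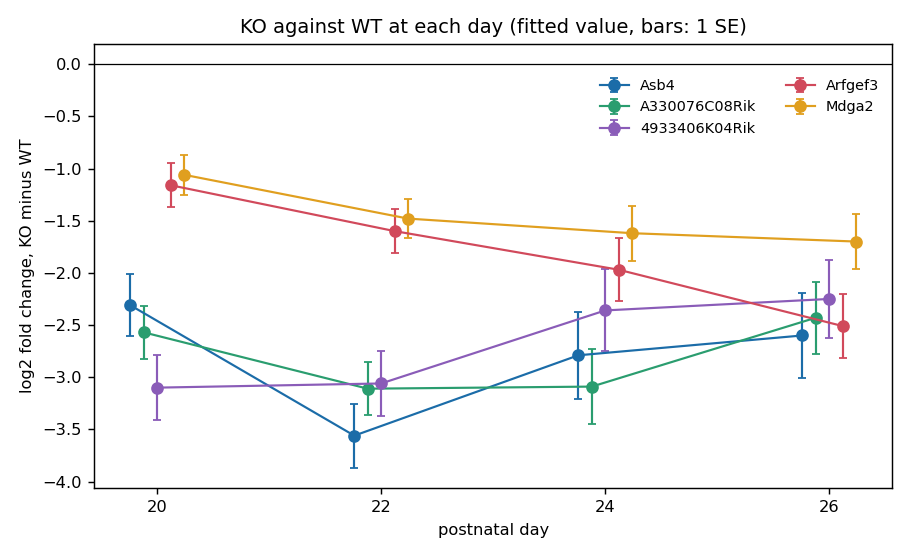
Fitted KO minus WT difference (log2) of each gene against postnatal day, with bars of 1 SE. *Asb4* and the 2 non-coding RNAs lie between -3.56 and -2.25 at every day, and *Arfgef3* moves from -1.16 at day 20 to -2.51 at day 26.

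The highest KO library was below the lowest WT library for all 5 genes at every day. Over all tested genes this held for 1.68%, 4.45%, 21.4% and 31.1% in order of day, where the later days set 2 libraries against 2. Across all days at once, with 12 libraries against 12, it held for 4 of the 5, all but *Mdga2*, and for 17 tested genes in all (0.099%). The rule that chose the 5 used the same contrast, so nothing is read from these counts. Of the tested genes, 0.361%, 1.25%, 0.0699% and 0.0466% were called lower in KO at days 20, 22, 24 and 26. A fitted difference below 0 at all 4 days, with no test, was found for 15.1% of tested genes, and no gene was called higher at all 4 days.

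The choice of these 5 rests on the days with 2 libraries per genotype. The largest of the 4 adjusted p (edgeR) was 0.00375 for *A330076C08Rik*, 0.0101 for *Asb4* and *Arfgef3*, 0.0175 for *Mdga2* and 0.0193 for *4933406K04Rik*, the last gene inside. Just outside were 6 genes below 0 at all 4 days and called at 3: *Col25a1* (0.0556 at day 26), *Atad2* (0.0628 at day 26), *1700047M11Rik* (0.0862 at day 26), *Grik2* (0.10 at day 26), *4930522O17Rik* (0.146 at day 24) and *Ptpro* (0.618 at day 20). Leaving out any 1 library of days 20 or 22 kept all 5 inside, and without WT_d20_2 the rule held for 13 genes in place of 5. Leaving out KO_d24_1, KO_d26_1 or KO_d26_2 left 0 of the 5 inside, leaving out KO_d24_2 or WT_d24_2 left 1, WT_d26_2 left 2 and WT_d26_1 left 4. DESeq2 called 14 genes lower at all 4 days, with all 5 among them. Each day fitted alone left 1 of the 5 inside, *A330076C08Rik*, and a replicate block within day left 3.

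The protocol in the labels mentions purification of spermatogenic fractions, whereas the methods of the study describe harvested testes, and which of these applied to the libraries is not settled here. Every library carried testis markers, somatic ones included: 6 pachytene markers summed to between 2070 and 5251 CPM and 6 Sertoli cell markers to between 343 and 647 CPM. Spermatid markers differed between the genotypes. A stage score, the mean centred log2 CPM of round spermatid markers minus that of pachytene spermatocyte markers, was -1.01 ± 1.40 (SD, n = 4) in KO and -3.32 ± 0.592 (SD, n = 4) in WT at day 20, and 0.705 ± 0.739 against -0.296 ± 0.203 at day 22. At days 24 and 26 it was 1.65 and 1.99 in KO and 1.78 and 2.42 in WT (means of 2). Of the marker lists, 4 of 6 round spermatid and 6 of 7 elongating spermatid markers were higher in KO over the mean of days, and 2 of 5 peritubular and 2 of 5 endothelial markers lower, with 1 of 6 Leydig and 1 of 6 early meiosis markers higher, beside 3.52% higher and 3.56% lower over all tested genes, and none of 6 Sertoli, 6 pachytene and 6 spermatogonial markers called. In RNA of a whole tissue, fewer cells of a type and less RNA per cell cannot be told apart. With the stage score as a covariate the daily differences of the 5 genes ran from -3.58 to -1.10, beside -3.56 to -1.06 without it, and 2 of the 5 were called at all 4 days. The part of the cell composition in the differences was not otherwise tested.

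Other tissue was present in some libraries. The summed level of 3 epididymis markers (*Crisp1*, *Adam7* and *Lcn5*) was above 10 CPM in 9 of the 24 libraries, 5 WT and 4 KO, and reached 716 CPM in WT_d24_2. With the remaining 15 libraries the fitted differences of the 5 genes lay between -3.63 and -1.22, none of the 5 was called at all 4 days, and days 24 and 26 then had 1 library per genotype. Markers of neurons, cells in which *Mdga2* is known to act, summed to between 4.21 and 8.67 CPM in WT and between 3.61 and 6.60 CPM in KO, and 2 of the 5 were expressed enough to be tested, neither of them called. Of the 3 blood markers, *Hba-a1* and *Hbb-bs* were listed at 0 in every library.

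From day 20 to day 26, 4 of the 5 genes rose in WT testis and 2 of the 5 rose in KO testis (edgeR, adjusted over all tested genes), where 42.5% and 52.2% of tested genes were called in either direction. These contrasts compare libraries of 1 genotype and were not themselves used to choose the genes. The rule used the same libraries of both days, so the courses are not independent of the choice. *Asb4* rose in both, by 1.31 ± 0.319 in WT (log2, SE, adjusted p by edgeR 0.00252) and by 1.01 ± 0.351 in KO (adjusted p by edgeR 0.0202). With the replicate number as an additive block its KO value was 0.93 and did not pass (adjusted p by edgeR 0.0546). The KO rise of *Asb4* rested on single libraries: without KO_d26_2 it was 0.76 with an adjusted p (edgeR) of 0.194, and without KO_d20_4 it was 0.86 with 0.0549.

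*4933406K04Rik* also rose in both genotypes, by 1.21 ± 0.296 in WT (adjusted p by edgeR 0.00239) and by 2.06 ± 0.362 in KO (adjusted p by edgeR 0.000102). Its fitted level at day 26 was thus 4.17 times that of day 20 in KO and 2.32 times in WT. *Mdga2* rose in WT by 1.12 ± 0.212 (adjusted p by edgeR 0.000213), and its KO value of 0.48 ± 0.233 did not pass (adjusted p by edgeR 0.0893). *A330076C08Rik* passed in neither genotype, with 0.23 ± 0.267 in WT and 0.37 ± 0.333 in KO (adjusted p by edgeR 0.502 and 0.356). Without WT_d20_3, its lowest WT library, the WT value was -0.02.

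*Arfgef3* rose in WT by 0.78 ± 0.239 (adjusted p by edgeR 0.0124), with both WT libraries of day 26 above all 4 of day 20. In KO its value was -0.57 ± 0.271 (adjusted p by edgeR 0.0819), with both KO libraries of day 26 below all 4 of day 20. Without WT_d26_2 the WT value was 0.56 and did not pass (adjusted p by edgeR 0.190). The difference between these 2 courses is the same quantity as the widening of the KO against WT gap between days 20 and 26, and it was not tested.

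**Figure D3:**
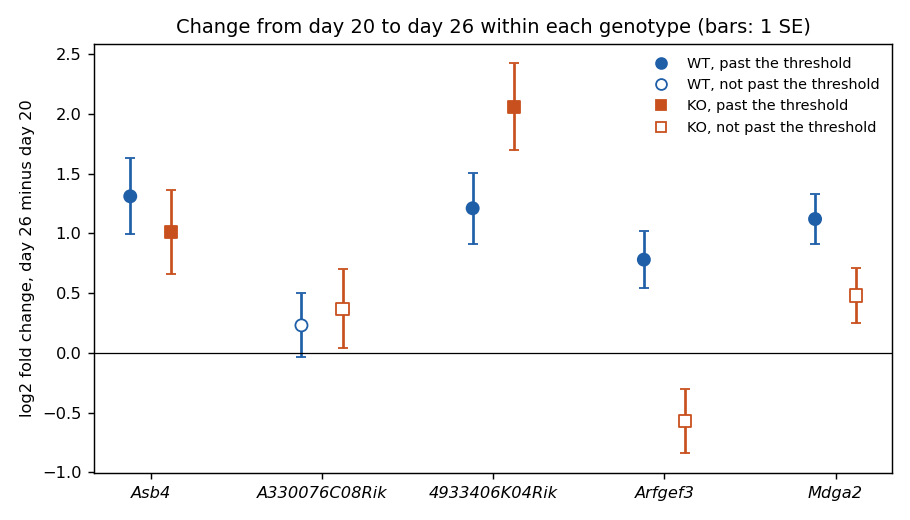
Change from day 20 to day 26 (log2, bars of 1 SE) of each gene in WT (circles) and KO (squares), with filled symbols for an adjusted p under 0.05 (edgeR). The filled symbols are 4 in WT and 2 in KO, and *Arfgef3* in KO, at -0.57, is the lone symbol below 0.

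Between days 20 and 22 *Asb4* rose in WT by 1.16 ± 0.273 and *Mdga2* by 0.81 ± 0.181 (adjusted p by edgeR 0.00544 and 0.00336, 20% of tested genes called), and *A330076C08Rik* had a value of 0.60 ± 0.220 that did not pass (adjusted p by edgeR 0.0591). Over the same step the KO values of these genes were -0.09 for *Asb4*, 0.39 for *Mdga2* and 0.06 for *A330076C08Rik*, and none passed (10.6% of tested genes called). Over this step *4933406K04Rik* had -0.13 in WT and -0.08 in KO, and neither passed. Timing was not compared between the genes by a test. Its later steps were 0.63 and 0.71 in WT and 1.32 and 0.82 in KO (days 22 to 24 and 24 to 26), and none passed alone. None of the 5 genes passed at a step after day 22 in either genotype, where the share of tested genes called was 5.92% (days 22 to 24) and 0.274% (days 24 to 26) in WT and 0.402% and 0.0116% in KO. The steps and the change from day 20 to day 26 share libraries and are not independent of each other.

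In WT the stage score ran from -3.75 to -2.47 at day 20 and from 2.416 to 2.419 at day 26. In KO it ran from -2.62 to 0.459 and from 1.96 to 2.03. Adjusting for the score thus takes out much of the contrast between these days, so such a fit cannot decide what part of a course is stage. With the stage score as a covariate no gene was called between days 20 and 26 in WT, and none of the 5 was called in KO. *Asb4* then had 1.19 in WT and 0.95 in KO, close to its values without the covariate, *Arfgef3* had 0.92 in WT, *4933406K04Rik* had 0.12 in WT and 1.49 in KO, and *Mdga2* had 0.31 in WT and 0.04 in KO (adjusted p by edgeR 0.923 and 0.951). Without the 9 libraries with epididymis markers the WT values were 1.01 for *Asb4*, 1.11 for *4933406K04Rik*, 0.55 for *Arfgef3* and 0.82 for *Mdga2*, and none passed (adjusted p by edgeR 0.0854 or higher). The KO values were then 0.76 for *Asb4* and 1.53 for *4933406K04Rik* (adjusted p by edgeR 0.362 and 0.0542).

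Ordered by mean, the 8 groups of *Asb4* ran through the 4 KO groups (4.45 to 9.57 CPM) to WT at day 20 (23.5 ± 8.72 CPM, SD, n = 4), and then to WT at days 24, 22 and 26 (48.9, 52.5 and 58.3 CPM), whose ranges overlapped from each to the next. The 4 KO groups of *Asb4* overlapped each with the next in the same way. For *A330076C08Rik* the 4 KO groups, from 1.10 to 1.46 CPM, overlapped in a chain, and WT at day 22 was the highest group at 10.1 ± 0.914 CPM (SD, n = 4). For *4933406K04Rik* neither genotype's days 20 and 22 could be told apart by range, and WT at day 26 stood alone at the top at 14.7 CPM. For *Arfgef3* the KO means ran from 3.88 CPM at day 26 to 5.78 CPM at day 20, the range of KO libraries at day 22 (3.36 to 7.24 CPM) held those of the other three days, and WT at day 26 stood alone at the top (22.2 CPM). For *Mdga2* the KO means ran from 2.79 to 3.89 CPM, KO at day 22 overlapped each of the other KO groups, and WT at day 26 stood alone at the top (12.7 CPM).

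The level of *Atad2* RNA varied among libraries of 1 genotype, which allowed a test of whether the 5 genes follow it within a genotype. The study describes the product of the KO allele as a non-functional fusion protein. In KO the relation therefore concerns the RNA level only and cannot address the dose of working ATAD2. Day-centred log2 CPM was compared within the 12 libraries of each genotype, by an exact two-sided permutation test that exchanged libraries within a day (2304 relabellings, smallest possible p 0.000434), with adjustment over 10 relations. None passed. In WT, Pearson's r with *Atad2* was -0.49 for *Asb4* (exact permutation p 0.417, rho -0.31), 0.62 for *A330076C08Rik* (0.316, rho 0.10) and 0.31 for *4933406K04Rik* (0.353, rho 0.34). It was -0.49 for *Arfgef3* (exact permutation p 0.253, rho -0.50) and 0.65 for *Mdga2* (0.261, rho 0.32). The permutation p of rho ran from 0.117 to 0.779 in WT, and the adjusted p of r was 0.588 or 0.595.

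Leaving out WT_d20_2 and WT_d20_3, the libraries with the highest and lowest centred *Atad2*, gave r of -0.48, -0.37, -0.21, -0.37 and -0.07 for *Asb4*, *A330076C08Rik*, *4933406K04Rik*, *Arfgef3* and *Mdga2*. The positive values of *A330076C08Rik*, *4933406K04Rik* and *Mdga2* thus rested on those libraries. In KO, r was 0.15, 0.13, 0.62, -0.20 and 0.62 in the same order of genes (exact permutation p 0.699, 0.859, 0.0521, 0.750 and 0.188), with rho of 0.08, 0.15, 0.52, -0.11 and 0.29 (permutation p from 0.0946 to 0.853). The adjusted p was 0.521 for *4933406K04Rik* and higher for the others. Without KO_d22_1 and KO_d22_2 the KO r of *4933406K04Rik* was 0.13 and that of *Mdga2* 0.11, so these values too rested on 2 libraries. Nor did any of 20 relations between pairs of the 5 genes within a genotype pass by the same test (r from -0.24 to 0.85, smallest adjusted p 0.292). Once the stage score was removed, 2 of those 20 passed. The pairs were examined after the other results had been seen.

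**Figure D4:**
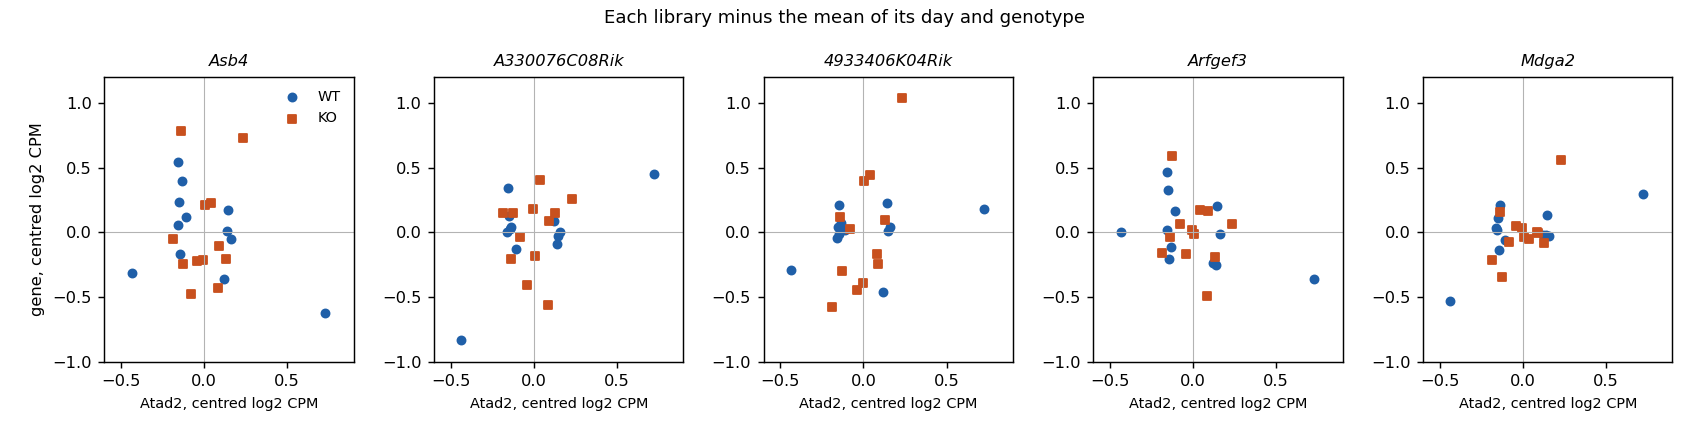
Level of each gene against that of *Atad2* in the same library, both as log2 CPM minus the mean of the library's day and genotype (circles WT, squares KO, 12 each). The WT libraries farthest to the left and right are WT_d20_3 and WT_d20_2, and without them r in WT lies between -0.48 and -0.07.

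Among the 20 tested genes that are the nearest 2 on either side of each, 0 were called lower by edgeR over the mean of the 4 days and 1 was called higher in KO. Over all tested genes 3.56% were called lower and 3.52% higher in this contrast. Beside *Asb4* lie *Pon2*, a paraoxonase gene 84.9 kb away, with 0.17 ± 0.0595 (log2, SE), and *Pdk4*, the gene of a pyruvate dehydrogenase kinase 50.3 kb away, with 0.08 ± 0.227, against -2.82 ± 0.184 for *Asb4* itself. Neither passed (adjusted p by edgeR 0.0856 and 0.875). DESeq2 called *Pon2* higher (0.18, adjusted p 0.0241).

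Beside *A330076C08Rik*, at -2.80 ± 0.156, lie *Cd83* (0.02 ± 0.323) and the non-coding *1700029N11Rik* (1.76 ± 0.595, adjusted p by edgeR 0.0796), 383 kb and 223 kb away. Beside *4933406K04Rik*, at -2.69 ± 0.177, lie 2 further non-coding genes, *1700121N20Rik* at 238 kb (1.33 ± 0.563, adjusted p by edgeR 0.159) and *4930465M20Rik* at 1007 kb (1.77 ± 0.518, adjusted p by edgeR 0.0462). With the stage score *1700029N11Rik* was at 0.26 and *4930465M20Rik* at 0.72, and neither passed (adjusted p by edgeR 0.724 and 0.48). *4930465M20Rik* is the gene called higher, with a KO mean of 1.04 CPM against a WT mean of 0.713 CPM, and the call was lost in 19 of the 24 fits without 1 library and without the filter on low counts (adjusted p by edgeR 0.0501). Beside *Arfgef3*, at -1.81 ± 0.131, lie *Hebp2* (0.23 ± 0.127) and *Gm4922* (0.19 ± 0.133), 35.8 kb away on either side, and neither passed. Beside *Mdga2*, at -1.47 ± 0.114, lie the ribosomal protein genes *Rpl10l* (0.21 ± 0.135, 182 kb) and *Rps29* (-0.19 ± 0.139, 1935 kb), and neither passed.

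**Figure D5:**
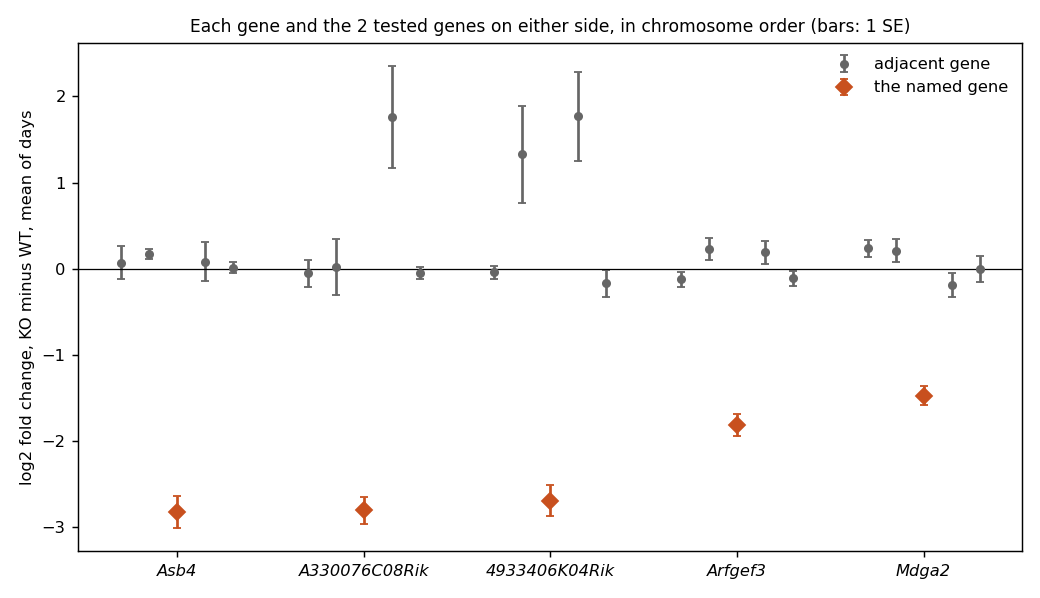
KO minus WT difference over the mean of the 4 days (log2, bars of 1 SE) for each of the 5 genes (diamonds) and the 2 nearest tested genes on either side (circles), in chromosome order. The diamonds lie between -2.82 and -1.47, and no circle lies below -0.19.

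Of the 57 tested genes in 4 lists drawn around the 3 protein-coding genes, 0 were called lower by edgeR over the mean of days, beside 3.56% of all tested genes. Called higher were 3, beside 3.52% of all tested genes, and these 3 are of the ASB family. An unadjusted p under 0.05 was found for 3982 of the 17170 tested genes, or 23.2%, which is the background for the counts at that level given here. Of the list of the other ASB substrate receptors, together with the cullin, RING and elongin subunits of their ligase, 19 of 21 genes were tested, 15 of them ASB genes. Of the 19, 0 were lower and 3 higher, 6 had an unadjusted p under 0.05, 31.6% were below 0, and the median was 0.10 against 0.01 over all tested genes. They were *Asb1* (0.34 ± 0.0810, adjusted p by edgeR 0.0184), *Asb8* (0.24 ± 0.0652, adjusted p by edgeR 0.0308) and *Asb17* (2.18 ± 0.495, adjusted p by edgeR 0.0174). *Asb17* rose by 10.44 from day 20 to day 26 in WT, and its KO difference, once the stage score entered the fit, was 0.65 and did not pass (adjusted p by edgeR 0.411). In that fit *Asb8* had 0.22 and did not pass either (adjusted p by edgeR 0.157). The call of *Asb8* was also lost in 8 of the 24 fits without 1 library, that of *Asb1* without KO_d24_1 and that of *Asb17* without WT_d24_2. Without the 9 libraries with epididymis markers, where days 24 and 26 have 1 library per genotype, *Asb1*, *Asb8* and *Asb17* had 0.35, 0.29 and 1.95, and none passed (adjusted p by edgeR 0.658 or higher).

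Of the 12 genes of the imprinted region that holds *Asb4*, 9 were tested and none was called by edgeR, with 4 at an unadjusted p under 0.05, 66.7% below 0 and a median of -0.06. The smallest p values were those of *Pon2* and of *Peg10*, a paternally expressed gene of the region, at -0.23 ± 0.0848 (adjusted p by edgeR 0.0984). Of 22 genes listed around ARFGEF3, which are 15 ARF exchange factors, 6 ARF GTPases and the prohibitin gene *Phb2*, none was called by edgeR, with 1 at an unadjusted p under 0.05, 54.5% below 0 and a median of -0.01. *Psd2* had 0.54 ± 0.171 (adjusted p by edgeR 0.0573) and *Psd* 0.17 ± 0.127 (adjusted p by edgeR 0.471). Of 7 genes for the other MDGA protein, neuroligins and neurexins, none was called by edgeR, with 2 at an unadjusted p under 0.05 and a median of -0.18, and 6 of the 7 were below 0, beside 49% of all tested genes: *Nlgn1*, a neuroligin gene, had -0.64 ± 0.216 (adjusted p by edgeR 0.0725) and *Mdga1* -0.44 ± 0.148 (adjusted p by edgeR 0.0749). By DESeq2 5 of the 57 were called, the 3 above, *Asb2* lower and *Pon2* higher, with 0 among the 22 of the ARF list and 0 among the 7 of the MDGA list. Among the 20 adjacent genes DESeq2 called 3, *Pon2*, *1700029N11Rik* and *4930465M20Rik*, all higher. The share of all tested genes that DESeq2 called in this contrast is not given here, so nothing is read from these counts.

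Over all 24 libraries, the genes outside the 5 whose log2 CPM was most like the mean of the 5 were *H2afy3* (r = 0.958), *Loxhd1* (r = 0.944), *Grik2* (r = 0.932), *1700047M11Rik* (r = 0.932) and *4930522O17Rik* (r = 0.928). The points share the split between genotypes, so the order describes mainly how evenly a gene was lower in KO. Over the 12 WT libraries alone each of the 5 had other companions. *Asb4* was most like *Rpa1* (r = 0.987), *Alg9* (r = 0.984) and *Pkdrej* (r = 0.982), and *Mdga2* most like *1700001J11Rik* (r = 0.990), *Cfap61* (r = 0.985) and *Ccdc148* (r = 0.981). *A330076C08Rik* was most like *Zfp367* (r = 0.938), *Tmem242* (r = 0.928) and *Sphkap* (r = 0.923), *4933406K04Rik* most like *4933413G19Rik* (r = 0.943), *4933406M09Rik* (r = 0.938) and *1700071K01Rik* (r = 0.938), and *Arfgef3* most like *Fkbp4* (r = 0.949), *Arpc5l* (r = 0.948) and *Usp51* (r = 0.948). These WT libraries share the course of the days, and of the 15 genes named for it, the KO against WT value over the mean of days was between -0.51 and 1.58. Among them *Sphkap* was called lower (-0.51, adjusted p by edgeR 0.00674) and *4933413G19Rik* higher (1.29, adjusted p by edgeR 0.0198). Over all tested genes 3.56% were called lower and 3.52% higher.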

How the data were processed

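Ribosome-depleted, strand-specific total RNA libraries of mouse testis were sequenced as read pairs. The authors deposited raw counts for each gene symbol, in a table for every library. They aligned reads to mm10 with STAR 2.7.11b and counted pairs in exons by strand with HTSeq, leaving out pairs with several alignments. Pairs in no exon (45.1% to 58.5%) and pairs with several alignments (4.74% to 13.7%) stayed out of library sizes. The gene model version is not given in the sources used here. The 5 genes, the lists and the tests were chosen with earlier results of these data known. Counts were fitted in edgeR 4.0.16 (R 4.3.3) with TMM scaling, filterByExpr (minimum count 10), 8 group means over 24 libraries, robust quasi-likelihood tests and Benjamini-Hochberg adjustment at 0.05 over 17170 genes. CPM carries no prior, and log2 CPM has a prior count of 2. The scripts were tested on simulated data. Symbols were placed with GENCODE M21: 23336 directly, 649 by an older symbol, 471 not. No 2 libraries of a group agreed within sampling noise. WT_d20_2 stood farthest from its group, with a chi-square per gene of 94.2 to 129 against the other WT libraries of day 20. Among those others it was 14.0 to 28.5. Read pairs carry no molecular identifiers, so depth limits cover counting error only. The genes named are the 5, *Atad2*, the nearest tested genes on either side, genes just outside the rule, the genes most like the 5 (highest r), and in each list the called genes or else the 2 of smallest p. Alternatives were DESeq2 1.42.0, no filter, a stage covariate, replicate blocks, single-day and single-genotype fits and each library left out.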

Additional observations from a re-analysis of the deposited data

Results flagged for a closer look

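In *A330076C08Rik*, KO_d22_3 stood apart from the other KO libraries of day 22 at 0.725 CPM, with the nearest at 1.27 CPM. In *4933406K04Rik*, KO_d22_2 stood apart at 1.38 CPM, with the nearest at 0.527 CPM. The gap to the nearest library, divided by the range of the group, was 0.830 and 0.839 in turn, just above the limit for 4 libraries. Of 24 groups of 4 examined, 2 were flagged, and chance flags about 1 in 20.

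*Arfgef3* had values of opposite sign from day 20 to day 26 (log2), 0.78 in WT, which passed but not without WT_d26_2 (0.56, adjusted p by edgeR 0.190), and -0.57 in KO, which did not pass (adjusted p by edgeR 0.0819), with every day 26 library above every day 20 library in WT and below in KO. The difference between the genotypes was not tested, because it is part of the contrast that chose the gene.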

How the results depend on the processing

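Leaving out the 9 libraries with epididymis markers was an alternative added after seeing the data. Genes called lower in KO at days 20, 22, 24 and 26 numbered 62, 214, 12 and 8, and 136, 328, 28 and 76 by DESeq2, 4, 66, 25 and 20 when the stage score was a covariate, and 3, 19, 0 and 0 without the epididymis-marker libraries. Each day fitted alone gave 5 and 60 at days 20 and 22 and 868 at day 26. Leaving out 1 library gave 26 to 69, 54 to 363, 0 to 24 and 0 to 64. The replicate block within day gave 5 at day 26, and 3 of the 5 genes called at all 4 days. Replicate numbers were not taken to pair the libraries, because not every same-numbered correlation was over 0.1. They ran from 0.0705 to 0.411 at day 20 and from -0.459 to -0.0254 at day 22, while 2 libraries per genotype give a single value a day, 0.39 at day 24 and 0.416 at day 26, and 6 of 8 libraries at day 20 and 0 of 8 at day 22 correlated best with their own number. From day 20 to 26 the genes called numbered 7292 in WT and 8955 in KO, 0 and 2121 with the stage score and 2818 and 3020 without the epididymis-marker libraries, and 4724 to 7971 in WT and 5829 to 10147 in KO without 1 library. Of the 5 genes, 0 were called in WT and 0 in KO with the stage score or without the epididymis-marker libraries, 1 in KO with the additive replicate block, and 3 to 4 in WT and 1 to 3 in KO without 1 library. Without 1 library *A330076C08Rik* in WT ran from -0.02 to 0.34. Of the adjacent genes 3 were called by DESeq2, 0 with no filter, the stage score, the epididymis-marker libraries left out or either replicate block, and 0 to 2 without 1 library. With the stage score *1700121N20Rik* was at -0.22, and without 1 library *Pdk4* ran from -0.05 to 0.32 and *Cd83* from -0.17 to 0.46. Of the list genes 5 were called by DESeq2, 1 with the stage score, 0 without the epididymis-marker libraries and 1 to 8 without 1 library. For the relation to *Atad2*, r without 1 library ran from -0.82 to 0.24 for *Asb4* in WT and, in KO, from -0.42 to 0.60 for *Asb4*, -0.11 to 0.42 for *A330076C08Rik* and -0.39 to 0.16 for *Arfgef3*, and no relation passed. The cause of these shifts was not tested. With 2 libraries per genotype at days 24 and 26, calls there depend on single libraries.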
